A study of Mus musculus with 4 samples.

Results

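The Gimap cluster is a run of 8 genes on mouse chromosome 6 that encode GTPases of immunity-associated proteins. Its chromatin accessibility was examined in hematopoietic stem cells (HSCs) with and without the mediator subunit Med23. The 8 members, Gimap8, Gimap9, Gimap4, Gimap6, Gimap7, Gimap1, Gimap5 and Gimap3 in their order along the chromosome, were taken by name. Every ATAC-seq peak that overlapped the span from the first to the last base of these genes, extended by 30 kb on each side, was included. That span ran from 48617234 to 48800851 of chromosome 6 (mm10), 184 kb in all. It held 9 of the 37887 peaks of the WT list and 7 of the 37615 peaks of the KO list on the autosomes and chromosome X.

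GIMAP proteins share a GTP-binding domain of the AIG1 family, and most are made in lymphocytes, where several of them act in cell survival. Loss of Gimap5 in mice and rats depletes peripheral T cells, and in mice it also impairs HSCs and progenitors. Gimap1 is needed for the survival of mature T and B cells, Gimap4 takes part in the apoptosis of T cells, and Gimap6 binds a member of the GABARAP family of autophagy proteins. Gimap3 is a close paralog of Gimap5. HSCs give rise to all blood lineages, the lymphoid lineages among them.

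In ATAC-seq, the transposase Tn5 cuts and tags open DNA, and a peak caller marks stretches with more tags than the local background. The cells were HSCs sorted from the bone marrow of adult C57BL/6 mice, 5000 cells per reaction, and no exact age was given. The labels give the gate as LSK CD150+CD34-CD48-, whereas the study's methods for ATAC-seq give it without CD34. The WT group comprised 2 samples from mice with both Med23 alleles floxed and no cre. The KO group comprised 2 samples from Mx1-cre mice with the same floxed alleles. In the Mx1-cre line, cre is driven by the interferon-responsive Mx1 promoter and was switched on in adult mice by injection of poly(I:C), so the deletion is not restricted to HSCs. The time between that injection and the sort was not given for these samples, nor the number of mice behind each. The study's text does not say whether the WT mice of the ATAC-seq samples were also injected. For its blood counts, both WT and KO mice were sampled after poly(I:C). The labels of both samples of a genotype point to 1 peak list. Each comparison was therefore of 1 WT list with 1 KO list, with no replicate check and no test, and all intervals below cover counting error only. Because the cells were measured in bulk, fewer cells with an open site and less cutting per cell cannot be told apart.

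The peaks that both lists shared lay at the start sites of Gimap8, Gimap9, Gimap1 and Gimap5 and in the gap between Gimap4 and Gimap6. These are the stretches on which the comparison turns, and their sequences are therefore shown, together with the start of Gimap4, which had no peak and is the member that the study names. All are read from the plus strand of GRCm38.p6, the assembly of mm10. The promoter stretches end at the base before the first annotated transcript base. The 4 stretches at start sites with a peak all contain the WT summit, and those of Gimap8 and Gimap9 contain the KO summit as well. The KO summits of Gimap1 and Gimap5 lay past the end of the stretch, and the stretch between Gimap4 and Gimap6 holds the summits of both lists. Capitals mark a match to 1 of 10 short motifs that were searched on both strands.
Gimap8 promoter region (chr6:48647034-48647233): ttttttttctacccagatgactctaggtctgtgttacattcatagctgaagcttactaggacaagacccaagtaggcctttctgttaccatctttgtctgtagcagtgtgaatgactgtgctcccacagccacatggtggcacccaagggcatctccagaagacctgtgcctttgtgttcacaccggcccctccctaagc
Gimap9 promoter region (chr6:48675929-48676128): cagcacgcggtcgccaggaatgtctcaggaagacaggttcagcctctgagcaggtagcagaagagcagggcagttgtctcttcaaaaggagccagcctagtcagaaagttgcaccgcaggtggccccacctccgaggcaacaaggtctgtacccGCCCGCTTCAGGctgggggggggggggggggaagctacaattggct
Gimap1 promoter region (chr6:48738854-48739053): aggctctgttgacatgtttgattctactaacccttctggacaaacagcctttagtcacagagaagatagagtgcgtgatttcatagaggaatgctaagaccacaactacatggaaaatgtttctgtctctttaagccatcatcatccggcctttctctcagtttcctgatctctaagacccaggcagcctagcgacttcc
Gimap5 promoter region (chr6:48745997-48746196): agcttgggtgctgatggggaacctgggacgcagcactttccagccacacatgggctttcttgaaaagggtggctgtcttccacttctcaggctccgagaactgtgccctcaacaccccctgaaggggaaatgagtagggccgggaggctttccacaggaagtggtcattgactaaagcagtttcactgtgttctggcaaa
region between Gimap4 and Gimap6 (chr6:48700270-48700469): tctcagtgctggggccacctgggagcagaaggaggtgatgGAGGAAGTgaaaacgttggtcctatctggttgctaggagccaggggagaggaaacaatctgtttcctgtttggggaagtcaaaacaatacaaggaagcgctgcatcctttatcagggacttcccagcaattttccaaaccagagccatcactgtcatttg
Gimap4 promoter, no peak (chr6:48684328-48684548): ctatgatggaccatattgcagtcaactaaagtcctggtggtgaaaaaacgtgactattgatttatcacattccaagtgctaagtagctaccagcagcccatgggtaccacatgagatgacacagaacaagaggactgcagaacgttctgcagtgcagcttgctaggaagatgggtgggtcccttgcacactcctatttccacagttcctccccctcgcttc
The capitals in the Gimap9 stretch are a match to the CTCF pattern, at position 155 counted from its first base. The capitals in the stretch between Gimap4 and Gimap6 are the PU1 pattern GAGGAAGT, at position 41. PU.1 is a myeloid and lymphoid transcription factor of the ETS family, and CTCF is a factor that binds at chromatin loop anchors.

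The deposited lists give no read counts. The number of tags stacked over the summit of a peak (its pileup) was recovered from the fold enrichment and the p-value that the authors' caller wrote for that peak. The median pileup was 18 over the WT list and 19 over the KO list, and the smallest was 6 in both. A pileup is read at a single base, the summit, so it is not a sum over the length of a gene or peak. Whether it varies with peak width was not tested. The strongest peak of the cluster was at Gimap5 in both lists. Its pileup was 37 in WT, higher than that of 80.4% of WT peaks, and 29 in KO, higher than that of 68.9% of KO peaks. Beside it, the cluster held weak peaks. The pileups of the 9 WT peaks ranged from 9 to 37 with a median of 12, and only 1 of them, that of Gimap5, was above the median of its list. The pileups of the 7 KO peaks ranged from 9 to 29 with a median of 11, and 2 were above the median of their list, those at Gimap5 and between Gimap4 and Gimap6.

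**Figure D1:**
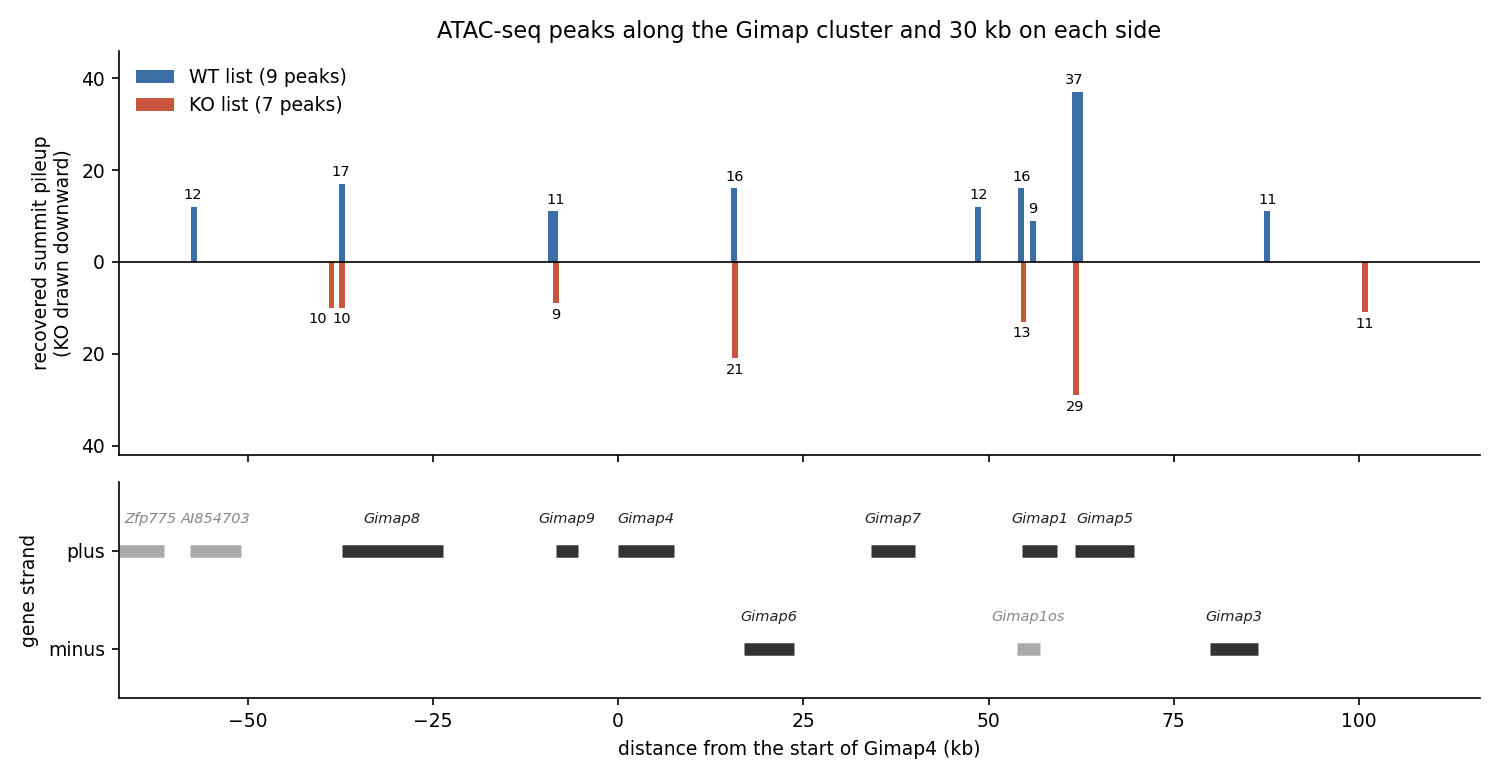
Recovered summit pileup of each peak (vertical axis, number of tags, WT upward and KO downward) against its distance in kb from the start of Gimap4, with the members in black and other annotated genes in grey on their strands below. Narrow peaks are drawn wider than they are so that they can be seen. The tallest bars of both lists, 37 in WT and 29 in KO, stand at the start of Gimap5, and no bar stands over the bodies of Gimap4, Gimap6, Gimap7 or Gimap3.

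The first comparison asked whether the same sites were open in both genotypes. Of the 9 WT peaks, 5 overlapped a KO peak (55.6%, 95% exact Clopper-Pearson interval 21.2 to 86.3), and 4 did not, against 21.7% without overlap over the whole WT list. Of the 7 KO peaks, 5 overlapped a WT peak (71.4%, 29.0 to 96.3), and 2 did not, against 20.7% over the whole KO list. Both intervals include the share of overlapping peaks in the full lists, 78.3% in WT and 79.3% in KO. Merging gave 11 regions in the span, of which 5 were in both lists, 4 in WT alone and 2 in KO alone. The bases under peaks came to 5521 bp in the WT list and 3639 bp in the KO list. The totals over all peaks were not set beside these. The median peak width was 504 bp (WT) and 498 bp (KO) in the cluster, and 628 bp and 620 bp over the full lists.

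Each of the 5 shared regions sat at the same place in both genotypes. The WT and KO summits lay 20 bp apart at Gimap9, 42 bp at Gimap1, 54 bp at Gimap8, 60 bp between Gimap4 and Gimap6, and 99 bp at Gimap5. The 4 WT peaks without a KO partner lay away from the members' own start sites. The first, in an untranslated exon of AI854703, was 20.17 kb upstream of Gimap8 (pileup 12), and the second was in an intron of Gm28053, 5884 bp upstream of Gimap1 (pileup 12). Gm28053 is an annotated gene model that runs from Gimap7 to Gimap5. The third was 1462 bp into Gimap1, in an intron of that gene that overlaps an exon of its antisense transcript Gimap1os (pileup 9), and the fourth was 1398 bp upstream of Gimap3 (pileup 11). The 2 KO peaks without a WT partner were 1359 bp upstream of Gimap8 (pileup 10) and 14407 bp upstream of Gimap3 (pileup 11).

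All 6 of these peaks were below the median pileup of their list, in the range where a partner is often missing. Over the whole WT list, 35.6% of the 1833 peaks with a pileup of 12 had no KO partner, as did 39.9% of those with a pileup of 11 and 56.4% of those with a pileup of 9. Over the whole KO list, 46.2% of the peaks with a pileup of 10 and 43.4% of those with a pileup of 11 had no WT partner. The weakest of the 6, inside Gimap1, had a fold enrichment of 3.26, higher than only 2.8% of WT peaks. Absence from a list means that no stretch passed the caller's threshold. Whether tags lay there below it cannot be read from a peak list.

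The second comparison asked whether the shared sites were equally open. The KO to WT ratio is that of the pileups, each divided by the genome-wide background of its list (1.19 in WT and 1.13 in KO). The median log2 ratio was 0.17 over the 28909 regions that held exactly 1 WT and 1 KO peak. The median of the 5 regions of the cluster was -0.21, and 1 of the 5 was above 0. Summed over the 5, the pileups came to 97 (WT) and 82 (KO), which is a log2 ratio of -0.16 (95% exact binomial interval -0.60 to 0.28). The scale matters for the sign of that median: with the fold enrichment of the authors' caller in place of pileup over background, it was 0.16 in the cluster and 0.26 over all shared regions. The cluster median was below that of all shared regions on both scales.

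**Figure D2:**
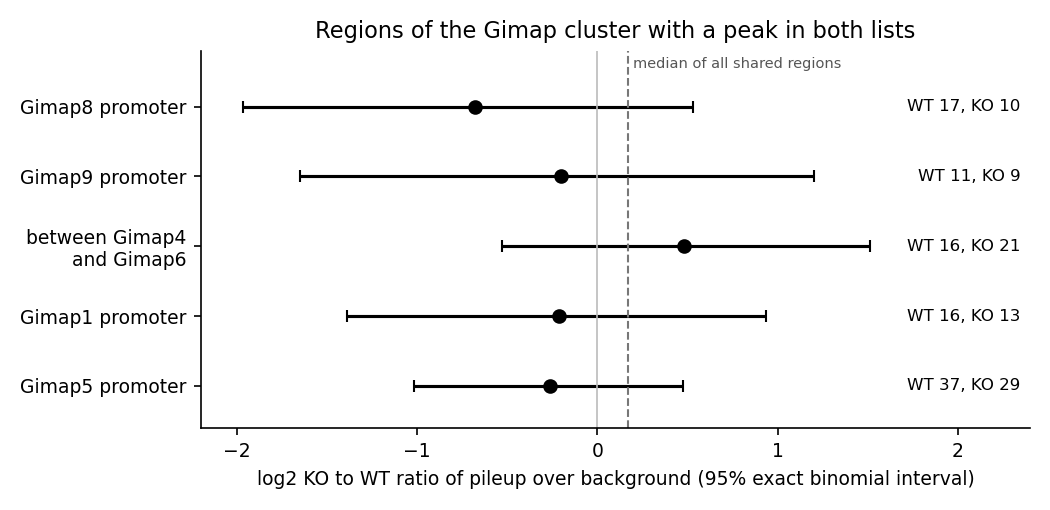
Log2 ratio of KO over WT, after each pileup was divided by its background (horizontal axis), in each of the 5 shared regions of the cluster, with 95% exact binomial intervals that cover counting error alone, and the WT and KO pileups at the right. The 4 promoters lie between -0.68 and -0.20, to the left of the median of all shared regions (0.17, dashed), the region between Gimap4 and Gimap6 lies at 0.48, and each of the 5 intervals includes 0.

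Gimap8, which encodes a family member with several GTP-binding domains, had the lowest ratio. Its promoter peak (48647083 to 48647376 in WT, 48647141 to 48647429 in KO) had a pileup of 17 in WT and 10 in KO, and a fold enrichment of 6.71 and 4.59. The log2 ratio was -0.68 (95% exact binomial interval -1.97 to 0.53), a ratio of 0.624, which ranked at percentile 2.15 of all shared regions. With the median ratio of all shared regions as the center, Gimap8 was the only region of the cluster past 1.5-fold. Thus 1 of the 5 was past this limit on the lower side and 0 on the higher side, while over all shared regions 7.91% were past it on the lower side and 7.64% on the higher. Among the 596 shared regions with the same summed pileup as Gimap8, 25.2% were past 1.5-fold in either direction. Its interval includes both 0 and the median of all shared regions.

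Gimap9 had the faintest of the promoter peaks. Its pileup was 11 in WT (48675120 to 48676378) and 9 in KO (48675851 to 48676348), with a log2 ratio of -0.20 (-1.65 to 1.21). The WT peak was 1259 bp wide and the KO peak 498 bp, the difference being mostly on the upstream side. Interspersed and low-complexity repeats made up 44.6% of the bases of the WT peak and 33.9% of those of the KO peak. In the 300 bp around the Gimap9 summit the share was 42.0% in each list, so the lists differed only over the whole peaks, whose widths differ. Over the 300 bp around all summits the median share of such bases was 7.33% in each list.

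Gimap1 and Gimap5 start within a short distance of each other. The Gimap1 promoter peak had a pileup of 16 in WT (48738791 to 48739072) and 13 in KO (48738982 to 48739537), with a log2 ratio of -0.21 (-1.39 to 0.94). The WT peak lay almost wholly before the start of Gimap1, and the KO peak reached further into the gene. The same stretch overlaps an exon of Gimap1os on the minus strand, and ATAC-seq does not tell the strands apart.

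At Gimap5 the order of the genotypes depended on the quantity. The pileup was 37 in WT (48745853 to 48747300) and 29 in KO (48745992 to 48746743), giving a log2 ratio of -0.27 (-1.02 to 0.48). The fold enrichment given by the caller was 8.51 in WT and 10.7 in KO, that is, higher in KO. The local background that the caller used around this peak was 3.46 in WT and 1.80 in KO, against list medians of 1.85 and 1.67. The caller's -log10 q was 22.5 in each list. On the scale of fold enrichment the log2 ratio was 0.33 at Gimap5 and 0.16 at Gimap1, while Gimap8 and Gimap9 stayed below 0 at -0.55 and -0.18.

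The only shared region away from the members' start sites lay between Gimap4 and Gimap6. It was 5896 bp from the nearest start of Gimap6 and beyond the 3′ end of both genes. Its pileup was 16 in WT (48699905 to 48700554) and 21 in KO (48699903 to 48700735), and its fold enrichment was 5.70 and 7.80. On the scale of pileup over background it was the only shared region of the cluster with a higher value in KO, with a log2 ratio of 0.48 (-0.53 to 1.51), at percentile 78.5 of all shared regions. Its difference from the median of all shared regions was 0.31 on the log2 scale, within 1.5-fold. The intervals of all 5 shared regions included 0.

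**Figure D3:**
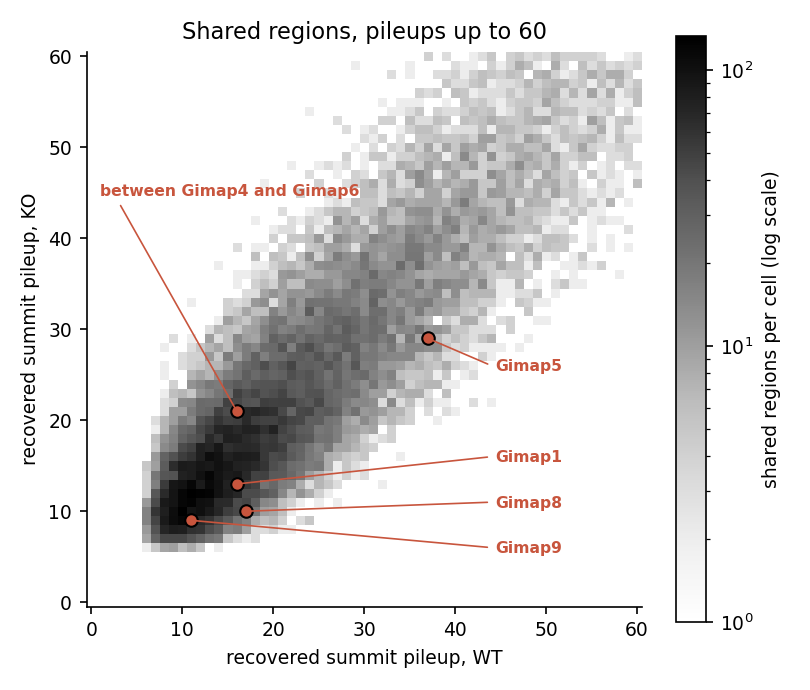
Recovered summit pileup in KO (vertical axis) against WT (horizontal axis) for regions found once in both lists, as a grey map of the number of regions per cell on a log scale, with the 5 regions of the cluster as red points. Pileups above 60 are outside the axes. The promoters of Gimap8, Gimap9, Gimap1 and Gimap5 lie toward the WT side of the cloud, and Gimap8, at 17 in WT and 10 in KO, lies near its lower edge.

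By gene, 4 of the 8 members had a peak summit within 1000 bp of a start site in the WT list and the same 4 had one in the KO list, namely Gimap8, Gimap9, Gimap1 and Gimap5. Over all 21755 protein-coding genes the share with such a peak was 61.1% in WT and 60.8% in KO. The other 4 members, Gimap4, Gimap6, Gimap7 and Gimap3, had none in either list, and no peak covered any base of their gene bodies. For Gimap4, the nearest summit to a start site was 8472 bp away (WT) or 8492 bp away (KO), and both belonged to the peak at Gimap9. For Gimap6 it was the region near its 3′ end. Gimap7, whose protein can stimulate GTP hydrolysis in other GIMAP proteins, had its nearest summit at 14505 bp in WT and 18221 bp in KO. For Gimap3 the distances were 1398 bp in WT, to the WT-only peak upstream of it, and 14407 bp in KO.

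**Figure D4:**
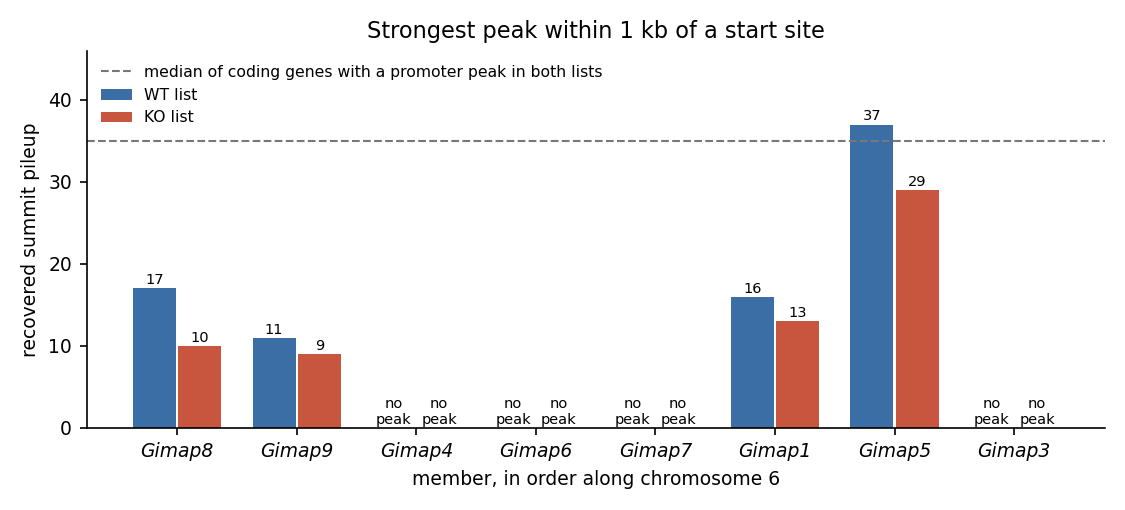
Recovered summit pileup (vertical axis) of the strongest peak within 1 kb of a start site of each member, WT in blue and KO in red, in order along chromosome 6. Gimap8, Gimap9, Gimap1 and Gimap5 have a bar in each list, lower in KO in each pair, and only the WT bar of Gimap5, at 37, passes the median of protein-coding genes with a promoter peak in both lists (35, dashed).

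The promoter peaks of the cluster were weak for promoter peaks. Among the 12632 protein-coding genes with a promoter peak in both lists, the median pileup was 35 in WT and 35 in KO, and the median log2 ratio was 0.09. At 3 of the 4 Gimap promoters both pileups were at most 17. The log2 ratio of pileup over background was below 0 at 4 of 4 Gimap promoters and at 37.8% of those protein-coding genes. On the scale of the authors' fold enrichment it was below 0 at 2 of the 4 and at 18.0% of those genes. The 4 are neighbors in 1 pair of libraries and are not independent.

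Peak coverage within 10 kb of each gene was also compared, where windows of neighboring members overlap and can hold the same peak. It was lower in KO for 6 members and higher for 2. No such count was made over all protein-coding genes, so this count has no share beside it. The largest difference was at Gimap1, where 2504 bp were covered in the WT list against 1308 bp in the KO list, in a window that also holds the Gimap5 promoter. Gimap5 had 2000 bp (WT) and 1308 bp (KO), Gimap9 had 1259 bp and 498 bp, and Gimap4, through its neighbors' peaks, had 1909 bp and 1331 bp. Gimap7 and Gimap3 had 504 bp and 268 bp in WT and no covered base in KO. Gimap8, through the KO-only peak upstream, had 294 bp (WT) and 601 bp (KO), and Gimap6 had 650 bp and 833 bp. With the gene body alone, the order at Gimap1 turned around, to 289 bp (WT) against 484 bp (KO).

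Sequence features that played no part in choosing the members were read next. Members' promoters, taken as 250 bp before and 50 bp after each RefSeq start (GRCm38.p6, 9 entries for 8 members), were poor in CpG. Their observed-to-expected CpG ratio ran from 0.10 at Gimap7 to 0.33 at Gimap9, and all were below the median of 0.384 over 32851 RefSeq promoters. The Gimap5 promoter, which had the strongest peak, had a ratio of 0.17, and the Gimap4 promoter, which had no peak, had 0.25. 

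Matches to short motifs were few. In the 300 bp around the summits, the PU1 pattern GAGGAAGT was present in 2 of 9 WT and 2 of 7 KO windows, against 7.27% of all WT and 7.95% of all KO windows. In each list these were the window between Gimap4 and Gimap6 and that at the start of Gimap1. The CTCF pattern was in 2 windows of each list, against 13.3% and 13.1% of all windows. The AP1 pattern TGANTCA was in 1 WT window, between Gimap4 and Gimap6, against 10.2% of all WT windows. The STAT pattern TTCNNNGAA was in 2 KO windows and 0 WT windows, and CEBP, TTGCNNAA, was in 1 KO window and 0 WT windows, against 8.48% and 11.3% of all WT windows and 8.50% and 11.2% of all KO windows. A KO window with STAT was that of the Gimap8 promoter, where both lists had a peak and the summits lay 54 bp apart. The region with AP1 was also in both lists, with summits 60 bp apart. At these shared regions the lists differ in the match only because their windows are placed differently on the same DNA.

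No window of the cluster held the RUNX pattern TGTGGTT (11.4% of all WT windows), the ETS pattern CCGGAAG (7.47%), the GATA pattern AGATAA (12.7%), the TCF pattern CTTTGAT (3.19%) or the ISRE pattern (5.72%). The PU1 and ETS patterns share the core GGAA, and a window can hold both. In the RefSeq promoters, PU1 was found at Gimap1, against 3.20% of all promoters, and CTCF at Gimap9 and the second Gimap8 start, against 8.61%. STAT was found at Gimap6, Gimap7, Gimap3 and the second Gimap8 start, against 8.30%, and CEBP at Gimap7, against 10.8%. Gimap4 and Gimap5 held none of the 10. A match is a stretch of letters, and its absence says only that those letters were not in the window.

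The genes of the family arose by duplication, so repeated sequence within the cluster was counted. Stretches of 50 bases that occur more than once within the span made up 1.17% of it. In Gimap5 they made up 2.39% of the gene and in Gimap3 3.00%, and in the other members at most 0.36%. No peak of either list held such a stretch. Copies elsewhere in the genome were not searched.

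The labelled cell type was checked by promoter peaks at marker genes. Of 8 stem cell markers, 6 had a promoter peak in both lists, and Procr and Slamf1 had none in either. Of 9 genes of lymphoid priming, 6 had one in WT and 4 in KO, with Il7r (pileup 13) and Ccr9 (7) in WT alone. Of the 4 in both lists, Flt3 had 58 in WT and 36 in KO, Satb1 36 and 43, Ikzf1 38 and 51, and Notch1 19 and 18, with a median log2 ratio of 0.17. Over all protein-coding genes, with or without a peak, 3.07% had a promoter peak in WT alone and 2.69% in KO alone. Weak peaks lacked a partner more often than the 21.7% of all WT and 20.7% of all KO peaks. In the whole WT list, 39.9% of peaks with a pileup of 11 and 56.4% with a pileup of 9 had no KO partner. In the whole KO list, 46.2% of peaks with a pileup of 10 had no WT partner. Of 9 T cell genes, 2 had one in WT and 4 in KO. Cd3d (33 in WT and 20 in KO) and Lck (13 and 8) were in both, and Tcf7 (7) and Bcl11b (18) were in KO alone. The remaining T cell genes, Cd3e, Cd3g, Cd4, Cd8a and Zap70, had no promoter peak in either list. Of 8 B cell genes, 3 had a promoter peak in each list, of 5 erythroid genes 2 in each, and of 8 mature myeloid genes 4 in WT and 1 in KO. S100a8 (11), S100a9 (10) and Ltf (9) were in WT alone, and Lyz2, in both, had 9 in WT and 15 in KO. The part of cells other than HSCs in the values of the Gimap cluster was not tested.

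A list of 10 genes was also read, picked because their proteins are reported to bind GIMAP proteins or to act beside them in survival and autophagy. All but Bax, which had a peak in WT alone (pileup 14), had a promoter peak in both lists, and the pileups were mostly higher than in the cluster. Of the 9 with a ratio of pileup over background, 7 were below 0, with a median log2 ratio of -0.19. Among protein-coding genes, 37.8% were below 0. The list was chosen with earlier results of these data known, and this count was not planned. No test was made of the difference between the list and all protein-coding genes. On the authors' fold enrichment 3 of the 9 were below 0, with a median of 0.16, against 18.0% of protein-coding genes. Bcl2, an inhibitor of apoptosis, had pileups of 67 in WT and 55 in KO (-0.20), and Bcl2l11, the death-promoting BIM, had 46 and 37 (-0.23). The lowest ratio was at Gabarap, an autophagy gene of the GABARAP family, with pileups of 32 in WT and 15 in KO (-1.01). Its relative Gabarapl2 had 66 and 75 (0.27), so these family members differed in sign. Over all 12632 protein-coding genes the median was 0.09 for pileup over background and 0.28 for fold enrichment.

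A pair of other gene clusters with the same flank served for scale, with no test. The SLAM receptor cluster (7 genes, 454 kb) held 10 WT and 10 KO peaks, 2.20 per 100 kb in each, and the S100a cluster (10 genes, 245 kb) held 14 and 11, or 5.72 and 4.50 per 100 kb. The Gimap cluster held 4.90 per 100 kb in WT and 3.81 in KO. Partners were found for 8 of 10 WT peaks in the SLAM cluster and 10 of 14 in the S100a cluster, and for 5 of 9 in the Gimap cluster. The median log2 ratio of pileup over background was 0.35 over 8 shared regions of the SLAM cluster and 0.12 over 10 of the S100a cluster. It was -0.21 over the 5 of the Gimap cluster. With the authors' fold enrichment the Gimap median was 0.16, and with a flank of 100 kb it was 0.0032. The SLAM and S100a clusters were not read with fold enrichment or with that flank.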

How the data were processed

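ATAC-seq peak lists of WT and Med23-deficient HSCs were used, 1 list for the 2 samples of each genotype; whether reads of both samples were pooled is not stated. The authors trimmed reads with Trim Galore, mapped them with Bowtie2 to the mm10 build, filtered duplicates with Picard and called peaks with MACS2 without a fragment model (versions not given in the sources used here). The deposited values per peak are the fold enrichment of the summit over local background (a ratio), the −log10 p-value and −log10 q-value, and a display score, which was not used. The deposited summit lists were identical to the summits in the peak lists. Read totals are unknown.

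Pileup and local background were solved from the fold enrichment and −log10 p of each peak, with the caller's pseudocount of 1. A whole number matched within 0.001 for 99.99% of peaks. The genome-wide background was the median over the 1000 lowest local backgrounds. Peaks on the 19 autosomes and chromosome X were used, and an overlap of at least 1 bp counted as shared. Ratios have no pseudocount and carry 95% exact binomial intervals. Calls were past 1.5-fold around the median ratio. The solving step was tested on simulated data. Genes were taken from GENCODE M21 and GRCm38.p6, and promoters and member sequences from RefSeq and that assembly. Python 3.11.15, pandas 2.3.3 and scipy 1.17.1 were used. Columns of no known sample numbered 0.

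Genes named were the 8 members, genes whose bodies lie in the span and the marker and partner lists. Every region of the span was described. Sequences were shown for members with a promoter peak and for the only shared region away from the members' start sites. The Gimap4 sequence was added after its values were seen. 1 gene of a marker list is not reported here. The members and lists were chosen with earlier results of these data known. Alternatives were other limits on −log10 q, flanks, overlap rules, promoter windows, scales and folds.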

Additional observations from a re-analysis of the deposited data

How the results depend on the processing

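With 1 list per genotype, nothing here has a replicate check, and the weak peaks of the cluster set the limit of what can be seen. No paired analysis was possible because neither list names a replicate, and leaving out replicates could not be run for the same reason. Over the alternatives, 31 values of the cluster stayed within the counting interval or 1.5 times the value in the report, 8 moved further and 2 turned around. The 31 include the median log2 ratio of shared regions, which was -0.21 in the report, 0.16 with the authors' fold enrichment and 0.0032 with a flank of 100 kb. A −log10 q of at least 5 changed the KO minus WT peak count from -2 to -4 and left 0 shared regions past 1.5-fold in place of 1, with 8 WT and 4 KO peaks left. A −log10 q of at least 10 left 1 WT and 2 KO peaks, which turned the peak count difference to 1 and the covered bases from -1882 to 137 bp. It put the overlapping share of WT peaks at 100%, the regions past the fold at 0, the mean number of peaks per 100 kb at 0.817 in place of 4.36, and the members with a promoter peak at 1 in place of 4. Without flanks, 100% of KO peaks overlapped a WT peak, and with a fold of 2, 0 regions were past it. The other values were those of single genes and the counts of promoters below 0. Of these, 18 stayed within the same limits, 20 moved further and 4 turned around. The 18 include the log2 ratios of Gimap5 and Gimap1. With the authors' fold enrichment these went from -0.27 to 0.33 and from -0.21 to 0.16. Coverage within 10 kb changed sign under the limit of 5 at Gimap8 (-294 bp), under the limit of 10 at Gimap4 (833 bp), and at Gimap1 within 2 kb of its starts (4 bp) and in the gene body (195 bp). The alternatives with a limit on −log10 q, no flank or a smaller window keep fewer peaks or bases by construction, and for the other changes the cause was not tested. Counts of promoters below 0 on the authors' fold enrichment, chosen after the data were seen, fell to 2 of 4 in the cluster and 3 of 9 among the partner genes.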
